A study of Mus musculus with 44 samples.

Results

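The ubiquitin-conjugating enzymes, or E2 enzymes, were followed through the skeletal stem cell hierarchy of the newborn mouse. Every gene whose symbol starts with Ube2 was taken, leaving out symbols that hold -ps or -rs, which gave 40 genes of the 46831 in the count table. The symbol does not make every member an E2. Ube2cbp is a ubiquitin ligase also known as Ube3d, Ube2uos is an antisense transcript, and Ube2d4 and Ube2nl are annotated in the mouse as processed pseudogenes. Of the 40 genes, 35 passed the filter on low counts in at least 1 comparison. Ube2d4, Ube2dnl1, Ube2dnl2, Ube2nl and Ube2uos never did, with at most 13 reads in any library, and Ube2dnl2 had none in all 44.

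Ubiquitin is attached to proteins in a relay. An E1 enzyme activates it, an E2 enzyme carries it as a thioester, and an E3 ligase brings the loaded E2 to the substrate, so that the E2 often decides which kind of chain is built. Chains linked through Lys48 mark proteins for the proteasome, Lys63 chains serve signalling and DNA repair, and a few E2 enzymes carry relatives such as NEDD8 or ISG15 in place of ubiquitin. Ube2h is the E2 of the CTLH ligase, the mammalian counterpart of the yeast GID complex, and is best known from maturing red blood cells.

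All cells were sorted by flow cytometry from long bones of C57Bl6 mice at postnatal day 3, taken without regard to sex. From the wild type (WT, Mettl3 fl/fl) there were 8 populations: skeletal stem cells (SSC), their progenitors pre-BCSP and BCSP, and the downstream PCP (cartilage progenitors), THY, BLSP, 6C3 and HEC. SSC, pre-BCSP and BCSP were also sorted from mice in which Col2a1-Cre, active in the cartilage lineage, deletes Mettl3, the catalytic subunit of the writer of N6-methyladenosine (m6A), and these are called Mettl3cko. Each population and genotype has 2 input libraries, which measure mRNA, and 2 libraries of RNA pulled down with an m6A antibody (IP), made from a part of the same sorted cells. All 44 libraries carry wild type as their labelled genotype. The sample titles say which are Mettl3cko, and the names of the count columns mark the same libraries as KO.

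Input libraries held 19795700 to 44046700 reads in genes and IP libraries of the WT 16480000 to 35856700. Mettl3 itself was not lower in the libraries labelled Mettl3cko: it stood at 16.5 to 23.1 CPM (TMM-scaled share of the reads of a library) in their 6 inputs and at 12.2 to 19.9 CPM in the 6 WT inputs of the same populations. A count over the whole gene includes reads from any exons outside the deletion, so it does not check these labels, and every direction given below is that of the libraries so labelled. The sorting markers Thy1 and Enpep followed the labels. Thy1 stood at 17.3 to 34.3 CPM in PCP, THY and BLSP and at most 0.430 CPM in the other WT inputs. Enpep, which encodes the 6C3 antigen, stood at 40.3 to 55.4 CPM in 6C3 and HEC and at most 8.60 CPM elsewhere. Both were low in SSC, pre-BCSP and BCSP alike, so they do not check the labels among these populations. Replicate inputs correlated at 0.939 to 0.977 (log2 CPM across genes) and WT IP replicates at 0.891 to 0.922, but Mettl3cko IP replicates only at 0.801 to 0.843.

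Per length of exon, Ube2b was the most abundant member. Ube2b, the Rad6 E2 that ubiquitinates PCNA and histone H2B, had a median of 81.0 FPKM (CPM divided by exon length in kilobases) over the 16 WT inputs, with a range of 49.1 to 144 FPKM. Other abundant members were the ER-associated E2 enzymes Ube2g2 (58.6 FPKM) and Ube2j1 (40.4 FPKM), the Lys63 E2 Ube2n (24.4 FPKM) and the promiscuous Ube2d3 (23.2 FPKM). Ube2h took place 13 with 12.5 FPKM. For each of these but Ube2h the range over the libraries overlaps that of the next named. The exon length used is that of all annotated exons of a gene together. For Ube2d3 it is 24499 bases, while its longest coding transcript has 3833. By CPM alone Ube2d3 was higher than Ube2b, with means of 584 and 203 CPM over the 16 WT inputs. The place of Ube2b and Ube2d3 in this order therefore depends on the length taken.

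Ube2h mRNA was nearly flat along the WT hierarchy, apart from 1 library. It stood at 59.4 and 59.6 CPM in SSC, at 68.3 and 65.9 CPM in pre-BCSP, at 60.3 and 76.0 CPM in BCSP and at 73.1 and 60.6 CPM in PCP. It stood at 51.4 and 53.2 CPM in THY, 50.5 and 53.3 CPM in BLSP, 213 and 64.7 CPM in 6C3, and 51.8 and 53.8 CPM in HEC. The 6C3 replicates thus differed from each other by more than all other WT inputs did. Across the 8 populations Ube2h passed the F test of edgeR's quasi-likelihood fit (adjusted p = 0.0241, Benjamini-Hochberg), but without the high 6C3 input, replicate 1, it did not (adjusted p = 0.313). SSC, pre-BCSP and BCSP against the 5 downstream populations gave a log2 difference of −0.07 ± 0.18 (SE, adjusted p = 0.801), which turned to 0.14 without that library (adjusted p = 0.253).

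Many other members did shift where stem and progenitor cells give way to the downstream lineages. In the same fit of 16 WT inputs, 19 of 34 members tested differed between any populations at an adjusted p under 0.05, or 55.9%, against 40.1% of the 20060 genes tested. For the stem and progenitor populations against the downstream ones the count was 23 of 34, against 51.4% of all genes. Of these, 16 were higher in SSC, pre-BCSP and BCSP (47.1%, against 23.1% of all genes) and 7 were lower (20.6%, against 28.3%). The median log2 difference was 0.26 over the members and −0.11 over all genes. The members were also counted more deeply than most genes. Their median level in the WT inputs was 36.0 CPM over 35 members, against 8.41 CPM over 17393 genes with a coding transcript. The part of this depth in the shares called was not tested. For 10 of the 34 members the 6 stem and progenitor inputs did not overlap with the 10 downstream inputs, against 16.5% of all genes. They lay above the downstream inputs for 7 members (8.19% of all genes) and below them for 3 (8.33%). Among those above all of them were Ube2b, Ube2cbp, Ube2e1, Ube2k, Ube2n and Ube2ql1, and Ube2j2, Ube2l6 and Ube2r2 lay below. These are bulk samples, in which fewer cells of a type and less RNA per cell cannot be told apart.

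**Figure D1:**
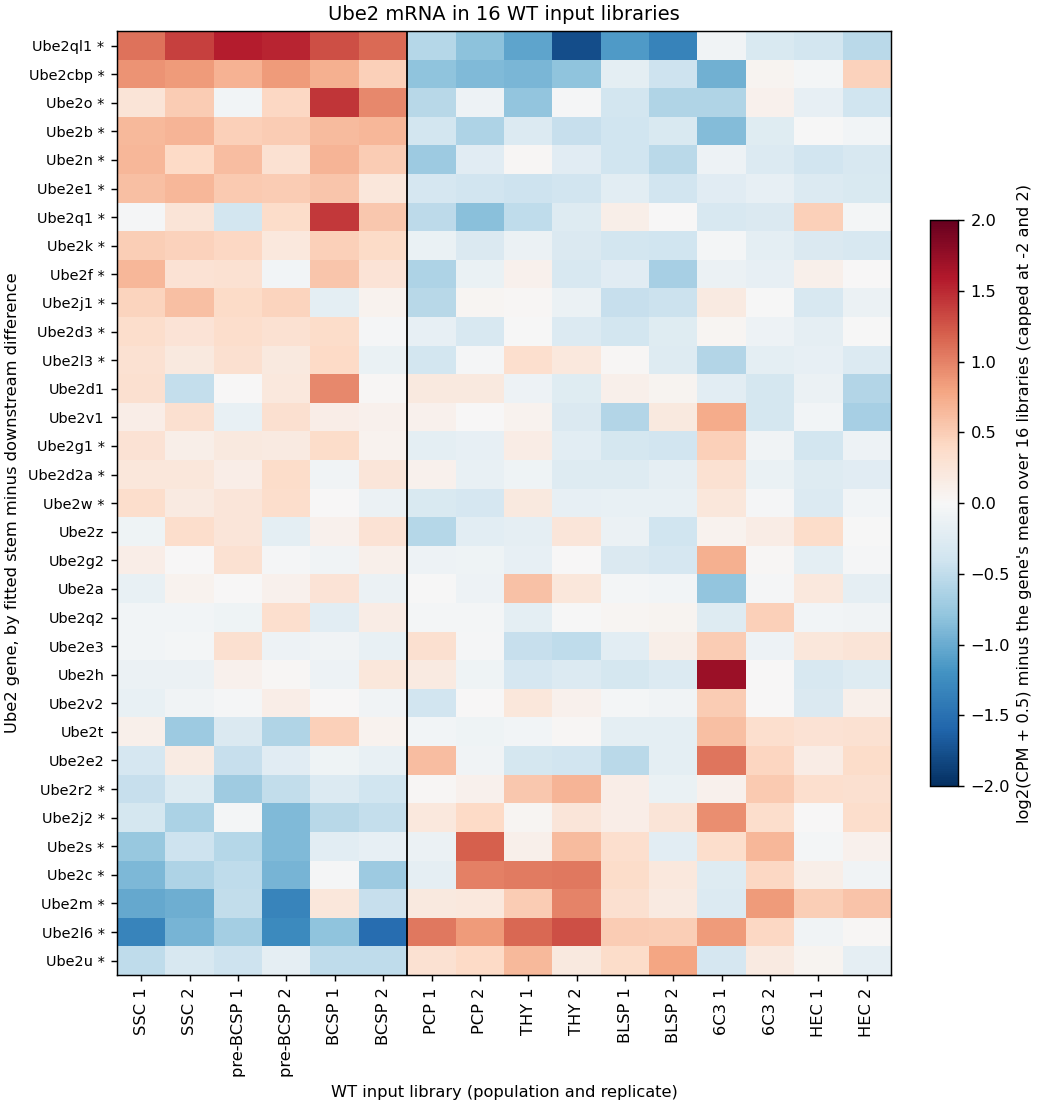
Ube2 mRNA in the 16 WT input libraries, 1 column each, as log2(CPM + 0.5) minus the mean of the gene over the 16 libraries (colour, capped at −2 and 2). Rows are 33 of the members tested, ordered by the fitted difference, a star marks an adjusted p under 0.05, and the line parts the 6 stem and progenitor inputs from the 10 downstream ones. Ube2ql1 at the top and Ube2l6 near the bottom change most across that line, and 1 of the 6C3 libraries stands out for Ube2h.

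The broad-acting E2 enzymes (Ube2d, Ube2e and Ube2w) start or extend chains with many ligases. Of 7 tested, 4 were higher in stem and progenitor cells (23.1% of all genes) and none was lower (28.3%). Ube2e1 differed most among these 4, with 38.5 to 52.3 CPM (median 47.6) in the 6 inputs against 24.5 to 29.1 CPM (median 26.1) in the 10 downstream ones. The groups did not overlap, and the log2 difference was 0.81 ± 0.10 (SE, adjusted p = 3.19e-06, edgeR quasi-likelihood test). A share of 16.1% of the exon bases of Ube2e1 lies under Nkiras1 on the other strand, and the strand setting of the counting is not stated. Ube2d3, Ube2d2a and Ube2w rose less, by 0.41, 0.28 and 0.24 (log2). Ube2e2 went the other way without passing the contrast (−0.33, adjusted p = 0.0638), and was highest on average in 6C3, at 72.5 and 46.2 CPM. It passed the test across all 8 populations (adjusted p = 0.0129).

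The E2 enzymes of Lys48 chains and of degradation at the endoplasmic reticulum split. Ube2k, which lengthens Lys48 chains, had 126 to 153 CPM (median 148) in stem and progenitor inputs and 82.6 to 105 CPM (median 89.0) downstream. All 6 values lay above all 10, with a log2 difference of 0.63 ± 0.09 (adjusted p = 1.63e-05, edgeR). Ube2j1 and Ube2j2 are paralogous E2 enzymes anchored in the same membrane, yet they moved in opposite directions. Ube2j1 was higher in stem and progenitor cells by 0.43 (adjusted p = 0.00294), with 124 to 214 CPM (median 188) against 95.8 to 160 CPM (median 131), so that the groups overlapped. Ube2j2 was lower (log2 difference −0.80 ± 0.14, adjusted p = 0.000144), with 34.1 to 61.8 CPM (median 44.3) against 63.7 to 122 CPM (median 75.6) and no overlap. Ube2r2, a sister of Cdc34 that works with cullin-RING ligases, was also lower, at 26.4 to 36.1 CPM (median 32) against 39.3 to 70.0 CPM (median 50.9). Its log2 difference was −0.73 ± 0.11 (adjusted p = 4.23e-05). Ube2g1 rose by 0.29 and Ube2g2 gave 0.09 (adjusted p = 0.499).

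Ube2n, the E2 that builds Lys63 chains, had 142 to 184 CPM (median 171) in stem and progenitor inputs and 69.6 to 117 CPM (median 93.8) downstream. The groups did not overlap, and the difference was 0.82 ± 0.10 (log2, adjusted p = 7.1e-06, edgeR). Its partner subunits without catalytic activity did not pass: Ube2v2 gave −0.08 (adjusted p = 0.629) and Ube2v1 0.30 (adjusted p = 0.593). Ube2v1 is uncertain, since 69.1% of its exon bases are shared with the read-through gene Gm20431, and it stood at 0.337 to 1.71 CPM.

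Of the 3 cell cycle E2 enzymes, 2 were lower in stem and progenitor cells, where 28.3% of all genes were. Ube2c and Ube2s, which start and lengthen chains for the anaphase-promoting complex (APC/C), were those, and Ube2t, the E2 of the Fanconi anaemia pathway, gave −0.27 (adjusted p = 0.144). Ube2c had 9.34 to 18.0 CPM (median 11.3) in the 6 stem and progenitor inputs and 15.3 to 38.5 CPM (median 22.4) downstream, where THY with 37.9 and 38.5 CPM and PCP replicate 2 with 37.0 CPM were highest. The groups overlapped at their edges, and the log2 difference was −1.06 ± 0.19 (adjusted p = 0.000266, edgeR). For Ube2s it was −0.88 ± 0.18 (adjusted p = 0.000869), with 17.6 to 29.3 CPM against 28.5 to 76.3 CPM. Ube2c shares 22.8% of its exon bases with Tnnc2 on the other strand. Of 15 genes of cycling cells 14 were lower with it (median −1.32), among them Mki67 (−2.86), and Pcna was higher (0.59). Of 16 APC/C subunits and activators, 3 were higher (23.1% of all genes) and 4 lower (28.3%).

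The promoter of Ube2c is shown because Ube2c moved with these genes, and promoters of cell cycle genes are known for repeated CCAAT boxes and for the CHR element TTTGAA. The 250 bases before its RefSeq start (GRCm38, chr2:164769679-164769928, plus strand) hold 6 matches to CCAAT on either strand, of which 1 pair overlaps, and 1 match to TTTGAA. Capitals mark both.

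Ube2c promoter: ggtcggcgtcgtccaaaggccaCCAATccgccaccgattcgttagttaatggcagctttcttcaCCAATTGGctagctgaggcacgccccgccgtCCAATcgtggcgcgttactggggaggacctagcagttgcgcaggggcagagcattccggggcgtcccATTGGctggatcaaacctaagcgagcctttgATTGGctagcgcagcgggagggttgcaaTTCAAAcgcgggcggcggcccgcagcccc

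In windows of the same length, CCAAT is present in 33.8% of 32851 mouse promoters and TTTGAA in 16%, and both together in 5.55%. At least 6 matches to CCAAT occur in 19 promoters, or 0.0578%, and among the members only in Ube2c. That cutoff was set by the count in Ube2c itself, so the share is a description and no test. Of 31 members with a promoter in the table, 10 hold CCAAT and 5 hold TTTGAA. Those with both are Ube2c, Ube2d2b, Ube2uos and Ube2f, and Ube2f was higher in stem and progenitor cells. Of the other cell cycle E2 enzymes, Ube2t is among those with CCAAT only and Ube2s is among neither. A match of letters shows no binding.

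Of the DNA damage tolerance pair Ube2a and Ube2b, which are near-identical Rad6 proteins, only Ube2b passed. It had 266 to 306 CPM (median 297) in stem and progenitor inputs and 104 to 189 CPM (median 151) downstream. No value overlapped, with a difference of 0.93 ± 0.10 (log2, adjusted p = 1.9e-06, edgeR). The exact two-sided permutation over the 56 splits of the 8 population means gave p = 0.0179, the smallest it can give. Many other members reached the same permutation p, among them Ube2c, Ube2e1, Ube2k and Ube2n. Its share over all genes was not computed. Ube2a gave 0.01 (adjusted p = 0.976). Of their ligases, Rad18, which pairs with Rad6 at stalled forks, was lower (−1.48), while Rnf20, which pairs with it on histone H2B, was higher (0.36).

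The E2 enzymes of ubiquitin-like proteins split again. Ube2l6, which carries the interferon-induced ISG15, had 5.05 to 9.52 CPM (median 6.99) in stem and progenitor inputs and 14.8 to 38.6 CPM (median 25.2) downstream. The groups did not overlap and the log2 difference was −1.81 ± 0.16 (adjusted p = 1.59e-07, edgeR). Isg15 itself was lower (−3.13). Of 5 genes of the ISG15 system 2 were lower (28.3% of all genes) and none was higher (23.1%). Ube2m, a NEDD8 E2, was lower too (−1.13 ± 0.19, adjusted p = 0.000132), with 7.67 to 23.3 CPM against 16.3 to 40.0 CPM. Ube2f, the other NEDD8 E2, was higher (0.52, adjusted p = 0.00191).

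The widest difference of a well-counted member was that of Ube2ql1, a little-studied atypical member of the Ube2q family. It had 16.8 to 23.5 CPM (median 19.9) in stem and progenitor inputs and 1.88 to 7.23 CPM (median 4.54) downstream. All values of one group lay above all of the other, and the log2 difference was 2.23 ± 0.15 (adjusted p = 8.94e-09, edgeR), between 2.15 and 2.32 whichever of the 16 libraries was left out. Ube2o, a large enzyme that acts as E2 and E3 at once, rose by 0.94 and Ube2q1 by 0.66. Ube2u gave −3.86 on at most 0.720 CPM in any input. Ube2cbp, the ligase among the members, was higher by 1.46 ± 0.27 (adjusted p = 0.000311), with 2.77 to 3.87 CPM against 0.702 to 2.73 CPM. Ube2l3, the E2 of HECT and RING-between-RING ligases such as parkin, rose by 0.32 (adjusted p = 0.0283), with 28.6% of its exon bases under Ydjc on the other strand.

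The rest of the pathway was mixed, in a contrast where 23.1% of all genes were higher in stem and progenitor cells and 28.3% lower. Of the 4 ubiquitin genes 3 were higher in stem and progenitor cells, among them Rps27a by 1.15 and Ubb by 0.82. Of 9 E1 genes 3 were lower, among them Uba1 (−0.50), the main E1 of ubiquitin. Of 7 E2 enzymes tested that bear other names 2 were lower, Cdc34 (−1.26) and Birc6 (−0.51). Of the 11 genes of the CTLH ligase that works with Ube2h, 5 were higher, among them Ranbp9 (1.20) and Wdr26 (1.18), and 2 were lower, Ypel5 (−0.79) and Gid8 (−0.37). Markers of other cells also differed: 8 of 9 erythroid genes were lower in stem and progenitor inputs, where their sum was 1.66 to 6.60 CPM against 19.0 to 146 CPM downstream. Genes of white blood cells (3 of 7 tested), osteoclasts (3 of 4, with 1 higher) and skeletal muscle (2 of 4 tested) were lower too. Of 3 genes of B cells 1 was higher, and of 5 endothelial genes 0 were called. Across the 8 populations, however, all 5 endothelial genes were called, against 40.1% of all genes. Their sum was 86.2 and 84.1 CPM in PCP and 1.08 to 21.0 CPM in the other WT inputs. The part of such cells in these differences was not tested.

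m6A was read as the ratio of IP to input within each population. By the rule of the study, a transcript counts as tagged where IP exceeds input by more than 1 on the log2 scale with an unadjusted p under 0.05. Members tagged were 7 of 33 in SSC (10.4% of all genes tested), 5 of 33 in pre-BCSP (12%), 2 of 33 in BCSP (6.67%) and 5 of 34 in PCP (10.6%). THY had 3 of 34 (12.4%), BLSP 5 of 34 (12.4%), 6C3 6 of 33 (14.5%) and HEC 5 of 33 (13.5%). In all, 38 of 267 pairs of member and population were tagged, and these fell on 9 of the 34 members. The shares over all genes were not computed for these totals, which are given as counts alone.

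**Figure D2:**
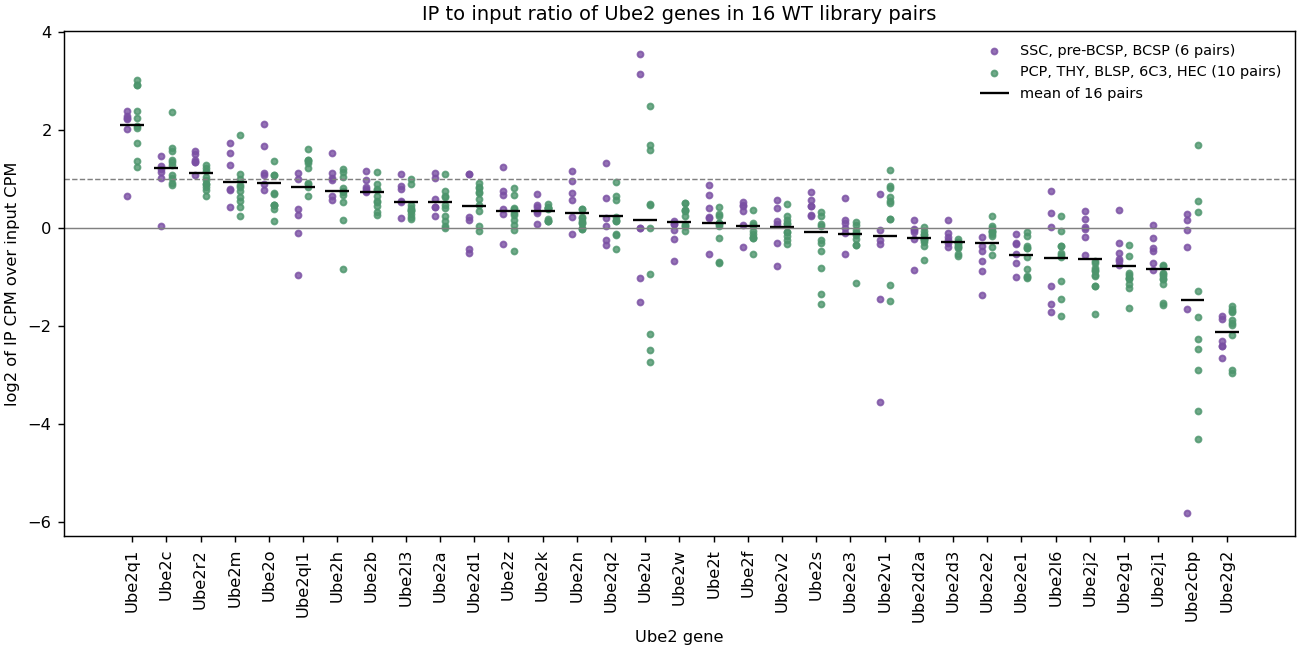
Log2 of IP CPM over input CPM for 33 Ube2 genes in the 16 WT pairs of libraries, ordered by the mean (black line). Purple points are the 6 pairs of SSC, pre-BCSP and BCSP and green points the 10 downstream pairs; the dashed line is a log2 ratio of 1. Ube2q1 lies at the top with a mean of 2.12 and Ube2g2 at the bottom with −2.11.

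Ube2q1 was tagged in all 8 populations, with fitted log2 ratios from 1.40 in BLSP to 3.07 in PCP. Over the 16 pairs of libraries its ratio was lowest in BCSP replicate 1 (0.65) and highest in PCP replicate 1 (3.02). Its input level was low, at 2.12 to 11.9 CPM. Ube2c was tagged in 7 populations (all but BCSP, where it gave 0.60) and Ube2r2 in 6, all but THY (0.92) and HEC (0.96). Ube2ql1 was tagged in 4, Ube2m and Ube2o in 3, Ube2b in 2 and the barely detected Ube2u in 1. With each IP paired to the input of the same cells, Ube2b fell short of the fold in SSC (0.98) and Ube2z reached it in pre-BCSP (1.01), and no other tag changed.

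Ube2h was tagged in SSC, pre-BCSP, THY and HEC. Its log2 ratios in the 2 pairs of each population were 1.54 and 1.03 in SSC, 1.00 and 1.13 in pre-BCSP, 0.57 and 0.66 in BCSP, and 0.76 and 0.16 in PCP. They were 1.05 and 0.82 in THY, 0.68 and 0.75 in BLSP, −0.83 and 0.54 in 6C3, and 1.15 and 1.21 in HEC. The ratio was above 0 in 15 of 16 pairs, and the exception was the 6C3 pair with the high input. The fitted ratios were 1.33 ± 0.25 in SSC (SE, adjusted p = 0.0398, edgeR), 1.07 ± 0.16 in pre-BCSP (adjusted p = 0.0139), 1.04 ± 0.17 in THY (adjusted p = 0.00604) and 1.28 ± 0.15 in HEC (adjusted p = 0.000675). BLSP with 0.79 ± 0.15 passed the p (adjusted p = 0.0109) but not the fold, and 6C3 gave −0.32 ± 0.49, or 0.71 without input replicate 1. In THY the ratio fell to 0.81 without IP replicate 1 and to 1.00 without input replicate 1, and the transcript was then no longer tagged.

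At the other end stood Ube2g2, which was depleted from the IP everywhere. Its ratio was under −1 with an unadjusted p under 0.05 in all 8 populations, from −2.32 ± 0.22 in SSC (adjusted p = 0.0286, edgeR) to −1.71 ± 0.18 in THY (adjusted p = 0.00149). In single pairs of WT libraries it ran from −2.95 to −1.58. Of its exon bases 10.3% are shared with Gm49325. No other member was depleted in more than 2 populations, and there were 15 such pairs among the 267 of member and population, or 5.62%, against 14.5% of the pairs of all genes.

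Sequences of the sites are shown for Ube2h, which was tagged, and Ube2g2, which was depleted, since m6A is laid on adenosine within a short motif of which GGACT is the commonest form. The longest coding transcript of each in GENCODE vM21 (GRCm38) was searched, and 8 bases on either side of the motif are given, with the motif in capitals. In Ube2h (chr6:30211289-30304539, minus strand, gene ENSMUSG00000039159.16) site 1 lies in the coding part and sites 2 to 5 after it. All 3 sites of Ube2g2 (chr10, plus strand) lie after the coding part.

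Ube2h site 1, chr6:30262177-30262197: tcctaggaGGACTcaatgaat
Ube2h site 2, chr6:30214203-30214223: agcgagcaGGACTggaggaga
Ube2h site 3, chr6:30214129-30214149: cattgcctGGACTgagctgtg
Ube2h site 4, chr6:30213521-30213541: gtcccactGGACTaacctttc
Ube2h site 5, chr6:30211486-30211506: gataaaagGGACTtaccagcc
Ube2g2 site 1, chr10:77644856-77644876: tctgccagGGACTggatacta
Ube2g2 site 2, chr10:77645175-77645195: gacaggcgGGACTgtcagagc
Ube2g2 site 3, chr10:77645945-77645965: tctgagatGGACTttaattgc

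The letters did not part the tagged from the depleted. Ube2g2 had 1.48 such sites per kilobase of transcript and Ube2h 1.07, Ube2r2 had 1.94, and Ube2q1, with the highest ratio of all members, had none. At least 1 GGACT is present in 88.6% of 35 members and in 91.5% of 17393 genes. Across the 35 members the Spearman correlation of sites per kilobase with the mean ratio was 0.06, and across all genes −0.12. These are descriptions over genes that share the same libraries, and the counts are per gene, so that no site can be called methylated.

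Between populations few differences in the ratio of IP to input were detected, which does not show that the ratios were alike. In the fit of all 32 WT libraries, 0 of 35 members tested differed across the 8 populations at an adjusted p under 0.05, against 0.485% of 25365 genes. At an unadjusted p under 0.05 there were 5 (Ube2g1, Ube2h, Ube2j1, Ube2j2 and Ube2s), against 7.97% of all genes, and DESeq2 called 1, Ube2j2, against 3.94%. With each IP paired to the input of the same cells, Ube2j2 (adjusted p = 0.00995, edgeR) and Ube2h (adjusted p = 0.0317) passed, beside 3.64% of all genes. Without the pairing Ube2h had an adjusted p of 0.52, and without 6C3 input replicate 2, which leaves that population with the high input alone, it passed (adjusted p = 0.00553).

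For stem and progenitor cells against downstream cells 2 of 35 members were called, both higher, against 3.06% of all genes higher and 4.84% in either direction. They were the 2 membrane-anchored E2 enzymes of the endoplasmic reticulum. The ratio of Ube2j2 was 0.03 and 0.34 in SSC, −0.54 and −0.01 in pre-BCSP and −0.17 and 0.18 in BCSP, and ran from −1.75 to −0.67 (median −0.91) in the 10 downstream pairs. The groups did not overlap, and the difference was 0.99 ± 0.20 (log2, adjusted p = 0.00254, edgeR). It stayed called whichever of the 32 libraries was left out (0.81 to 1.17). The ratio of Ube2j1 was −0.71 and −0.21 in SSC, −0.46 and −0.84 in pre-BCSP and 0.07 and −0.40 in BCSP, against −1.56 to −0.74 downstream. Here the groups overlapped, and the difference of 0.68 ± 0.18 (adjusted p = 0.0223) was called with only 15 of the 32 libraries left out (0.43 to 0.74). Next in order of p came Ube2g1, Ube2s and Ube2r2 (0.45, adjusted p = 0.118). The ratio of Ube2s was 0.24 to 0.74 (median 0.45) in stem and progenitor pairs and −1.54 to 0.33 (median −0.27) downstream, and that of Ube2g1 −0.76 to 0.36 (median −0.56) against −1.63 to −0.34 (median −1.01). Both overlapped. With the pairing, Ube2g1 (0.61, adjusted p = 0.0190) and Ube2s (0.89, adjusted p = 0.00620) were called as well, which made 4 of 35 against 6.94% of all genes. Ube2h gave 0.44 ± 0.24 (adjusted p = 0.421) and 0.40 with the pairing (adjusted p = 0.205). The IP libraries also differed along this contrast in their share of mitochondrial reads. It was 1.56 to 2.92% in stem and progenitor IPs and 4.53 to 9.10% in downstream IPs. In the WT inputs it overlapped, at 0.427 to 0.717% against 0.287 to 1.41%. The part of this difference in the ratios was not tested.

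Ube2h mRNA was higher in the libraries labelled Mettl3cko than in every WT library of the same populations. Ube2h had 125 and 108 CPM in Mettl3cko SSC, 181 and 97.8 CPM in Mettl3cko pre-BCSP, and 119 and 115 CPM in Mettl3cko BCSP. The 6 WT inputs of these populations had 59.4 to 76.0 CPM, so that the groups did not overlap in any of the 3 populations. The log2 fold change was 0.96 ± 0.19 in SSC, 1.07 ± 0.33 in pre-BCSP and 0.77 ± 0.23 in BCSP. Each passed the rule of the study on an unadjusted p, but none the adjustment over all genes (adjusted p = 0.160, 0.569 and 0.271, edgeR quasi-likelihood test). Over the 3 populations together it was 0.94 ± 0.15 (adjusted p = 0.00246), and between 0.80 and 1.03 and called whichever of the 12 libraries was left out. In pre-BCSP alone the value fell to 0.55 without Mettl3cko input replicate 1, and was no longer called without any 1 of the libraries except Mettl3cko input replicate 2; in BCSP it fell to 0.61 and was not called without WT input replicate 1.

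**Figure D3:**
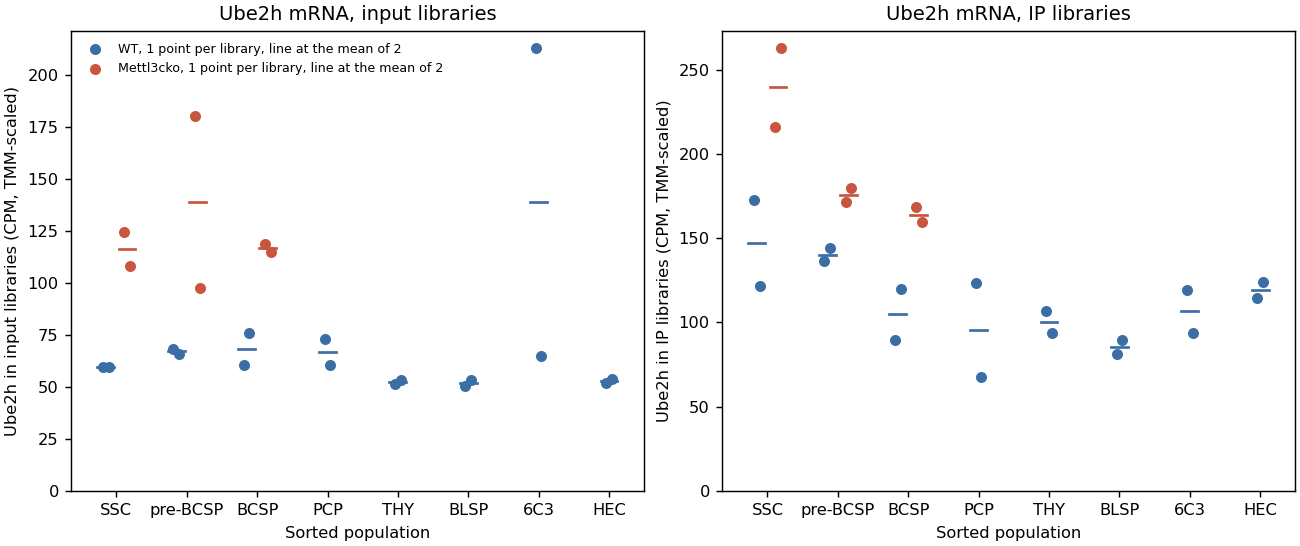
Ube2h in input (left) and IP (right) libraries in CPM, by population, 1 point per library with a line at the mean of the 2; blue is WT and red Mettl3cko, which was sorted for SSC, pre-BCSP and BCSP. All 6 red inputs (97.8 to 181 CPM) lie above the blue ones beside them (59.4 to 76.0 CPM), and 1 of the 6C3 inputs reaches 213 CPM.

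In the pooled fit 3 of 33 members were called, against 6.47% of 18655 genes. Ube2h and Ube2l3 were higher (3.83% of all genes) and Ube2ql1 was lower (2.64%). Ube2l3 had 78.7 and 72.4 CPM in WT SSC, 79.3 and 72.5 CPM in pre-BCSP and 83.4 and 57.5 CPM in BCSP. In Mettl3cko it had 106 and 121 CPM, 116 and 108 CPM, and 108 and 97.9 CPM in the same order. No Mettl3cko value was as low as a WT value, and the log2 fold change was 0.57 ± 0.12 (adjusted p = 0.00977, edgeR).

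Ube2ql1, the member with the widest difference between stem and downstream cells, fell by 0.87 ± 0.19 on the log2 scale (adjusted p = 0.0136). It had 16.8 and 20.5 CPM in WT SSC, 23.5 and 22.9 CPM in pre-BCSP and 19.3 and 17.3 CPM in BCSP. In Mettl3cko it had 13.3 and 7.84 CPM, 10.7 and 15.2 CPM, and 11.3 and 7.51 CPM. Every Mettl3cko value lay below every WT value of these populations, and all stayed above the highest downstream WT input (7.23 CPM). All 3 members were called whichever of the 12 inputs was left out. Next in order of p came Ube2e2 (−0.56, adjusted p = 0.0541) and Ube2f (0.40, adjusted p = 0.0574), both of which were among the 8 members DESeq2 called, where it called 12.4% of all genes. Ube2e2 had 26.9 and 38.4 CPM in WT SSC, 24.7 and 29.4 CPM in pre-BCSP and 32.3 and 31.0 CPM in BCSP, and in Mettl3cko 21.7 and 19.1 CPM, 23.9 and 18.5 CPM, and 24.1 and 16.1 CPM. All Mettl3cko values of Ube2e2 lay below all WT values. Ube2f had 74.3 to 123 CPM in the WT and 111 to 146 CPM in Mettl3cko, and the groups overlapped.

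**Figure D4:**
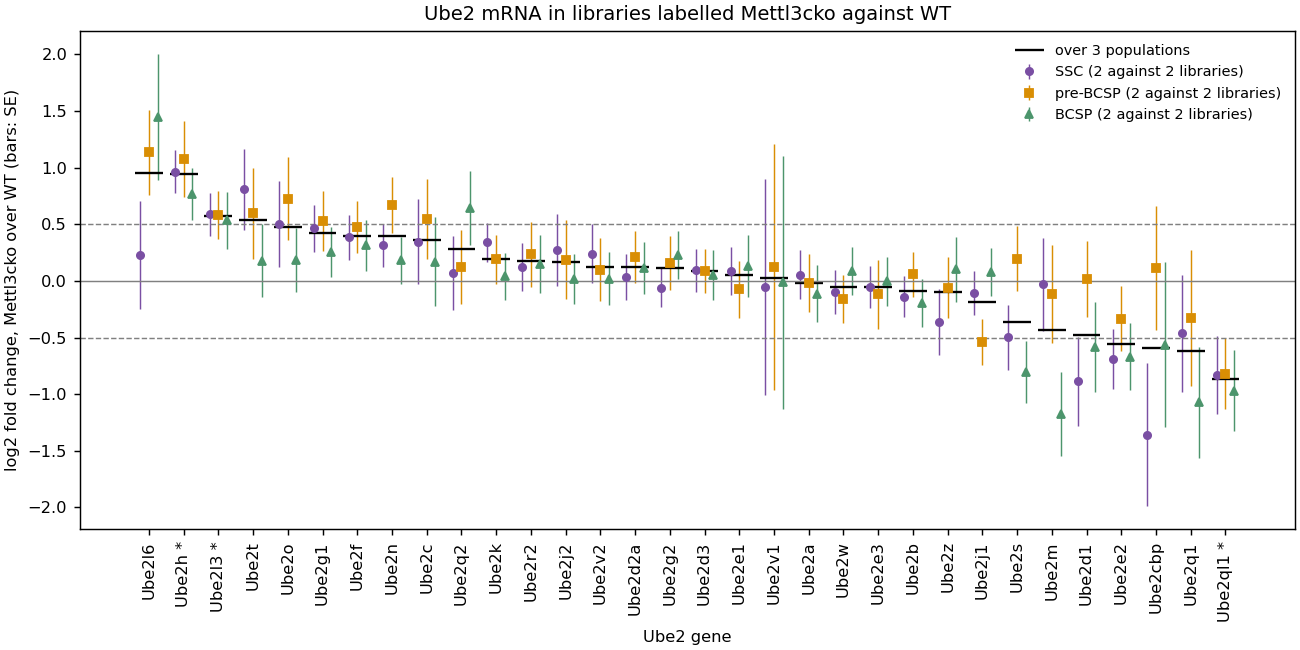
Log2 fold change of Mettl3cko over WT input libraries for 32 Ube2 genes. Points with bars (SE) are the fits of 2 against 2 libraries in SSC, pre-BCSP and BCSP, black lines the fit over the 3 populations, stars an adjusted p under 0.05 in that fit, and dashed lines −0.5 and 0.5; Ube2h (0.94), Ube2l3 (0.57) and Ube2ql1 (−0.87) carry stars.

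Population by population, with the study's rule of a log2 fold change beyond 0.5 and an unadjusted p under 0.05, 4 of 33 members changed in SSC (14.0% of all genes), 6 in pre-BCSP (8.36%) and 5 in BCSP (12.9%). In SSC, Ube2h and Ube2l3 (0.59) were higher and Ube2e2 (−0.69) and Ube2ql1 (−0.83) lower. In pre-BCSP, Ube2h, Ube2l6 (1.14), Ube2n (0.67) and Ube2l3 (0.58) were higher and Ube2ql1 (−0.82) and Ube2j1 (−0.54) lower. In BCSP, Ube2h and Ube2l6 (1.45) were higher and Ube2m (−1.18), Ube2ql1 (−0.97) and Ube2s (−0.80) lower. The NEDD8 E2 Ube2m fell there from 23.3 and 14.3 CPM to 8.66 and 8.04 CPM, and Ube2s from 28.5 and 29.3 CPM to 15.0 and 18.3 CPM, both without overlap. In pre-BCSP, Ube2n had 178 and 142 CPM in the WT and 284 and 217 CPM in Mettl3cko, and Ube2j1 had 185 and 193 CPM against 123 and 133 CPM, also without overlap. No gene of the table passed an adjusted p under 0.05 in any of the 3 fits (0.00%), and among the members DESeq2 called 1 in SSC (4.11% of all genes), 0 in pre-BCSP (0.986%) and 0 in BCSP (3.36%). The pre-BCSP count ranged from 0 to 10 with single libraries left out: it was 10 without Mettl3cko input replicate 2, 1 without Mettl3cko replicate 1 or WT replicate 1, and 0 without WT replicate 2.

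Ube2l6, the ISG15 E2, lay above every WT input of these populations in 5 of the 6 Mettl3cko inputs. It had 28.0 CPM in BCSP replicate 1 but 9.58 CPM in replicate 2, 11.2 and 5.09 CPM in SSC and 17.1 and 16.6 CPM in pre-BCSP, against 5.05 to 9.52 CPM in the 6 WT inputs. The groups overlapped through SSC replicate 2, and in the pooled fit the fold change of 0.95 ± 0.32 did not pass (adjusted p = 0.0946, edgeR). Isg15 was called there (2.07).

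No difference between the 3 populations in the response of a member was detected. The test of genotype by population called 0 of 33 members and 0 of 18655 genes (0.00%), with 0 members also at an unadjusted p under 0.05 (4.50% of all genes). DESeq2 gave 1 member unadjusted (6.37% of all genes) and 0 adjusted (0.220%). For Ube2h the unadjusted p was 0.693, so that a response in 1 population alone was not shown.

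Of 11 genes of the CTLH ligase 0 were called in the pooled fit (median log2 fold change 0.02), where 6.47% of all genes were, and none of the 4 ubiquitin and 9 E1 genes was. Of 9 erythroid genes 7 were tested here and 3 were higher (median 3.57), with a sum of 11.9 to 52.2 CPM in Mettl3cko inputs and 1.66 to 6.60 CPM in WT inputs. The sum was 26.3 to 146 CPM in WT PCP, THY, BLSP and HEC, where Ube2h was at 50.5 to 73.1 CPM, and the 6C3 input with 213 CPM of Ube2h had the lower sum of its pair (19.0 against 67.8 CPM). Of 15 genes of cycling cells 6 were higher, and their sum was 342 to 656 CPM in Mettl3cko inputs and 255 to 405 CPM in the WT inputs. Their part in the rise of Ube2h was not tested.

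The ratio of IP to input of Ube2h did not pass a test between the genotypes. In the IP libraries Ube2h had 173 and 122 CPM in WT SSC and 216 and 263 CPM in Mettl3cko SSC. It had 136 and 144 CPM against 171 and 180 CPM in pre-BCSP, and 89.8 and 120 CPM against 169 and 159 CPM in BCSP. In each population both Mettl3cko values lay above both WT values. The log2 ratios in Mettl3cko were 0.79 and 1.28 in SSC, −0.07 and 0.88 in pre-BCSP and 0.50 and 0.47 in BCSP. Over the 3 populations the change of the ratio was −0.38 ± 0.23 (adjusted p = 0.43, edgeR), beside a median of −0.38 over all 20360 genes.

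Of 34 members tested in this fit 0 passed an adjusted p under 0.05, against 2.33% of all genes. At an unadjusted p under 0.05 there were 7, among them Ube2cbp, Ube2d3, Ube2l3, Ube2o, Ube2t and Ube2z, against 17.2% of all genes, and DESeq2 called 4 of them at an adjusted p (Ube2cbp, Ube2l3, Ube2o and Ube2t), against 8.95%. Ube2o had the lowest p, with a change of −2.09 ± 0.62 (adjusted p = 0.0842). Its log2 ratios were 0.90 and 1.67 in WT SSC, 2.14 and 1.08 in pre-BCSP and 1.13 and 0.77 in BCSP. In Mettl3cko they were −2.22 and −2.09, 0.65 and −1.14, and 0.33 and −1.18, so that the groups did not overlap. Ube2o was called without Mettl3cko BCSP IP replicate 1 (−2.43, adjusted p = 0.0402) and without Mettl3cko pre-BCSP IP replicate 1 (−2.57, adjusted p = 0.0249). Ube2l3 came next (−0.87 ± 0.27, adjusted p = 0.0914), with WT ratios of 0.21 to 1.11 and Mettl3cko ratios of −1.10 to 0.30. For Ube2d3 the WT ratios were −0.38 to 0.18 and the Mettl3cko ratios −0.93 to −0.32, and for Ube2z −0.33 to 1.26 and 0.23 to 2.92, each with overlap.

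Within single populations the counts at an unadjusted p under 0.05 were 7 of 33 in SSC (14.5% of all genes), 2 in pre-BCSP (11.9%) and 3 in BCSP (10.3%), and no gene passed an adjusted p (0.00%). DESeq2 called 6 members in SSC (10.2% of all genes), 0 in pre-BCSP (5.71%) and 2 in BCSP (4.14%) at an adjusted p under 0.05. With each IP paired to its input the counts were 6 in SSC (6.87% of all genes), 2 in pre-BCSP (8.30%) and 3 in BCSP (6.37%), and in pre-BCSP Ube2v1 (−8.17) lost the call and Ube2n (−0.70) gained it. In SSC, Ube2ql1 (−6.44), Ube2d1 (−6.32), Ube2t (−8.48), Ube2o (−3.53) and Ube2d3 (−0.83) were among those lower and Ube2z, an E2 fed by the E1 Uba6, was higher (2.48). The first 3 of these rest on IP counts close to 0: Ube2ql1 had 0.206 and 0.156 CPM in the Mettl3cko SSC IP libraries beside 13.3 and 7.84 CPM in the inputs. Missing reads of this kind were spread over the Mettl3cko IP libraries, with Ube2c at 0 in pre-BCSP replicate 2 and at 28.4 CPM in replicate 1, and Ube2j2 at 0.117 CPM in SSC replicate 2 and at 118 CPM in replicate 1. These are the libraries whose replicates were least alike, and the counts moved with single ones: without Mettl3cko IP replicate 1 they were 15 in SSC, 10 in pre-BCSP and 10 in BCSP.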

How the data were processed

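Per the labels and the methods of the study, RNA of sorted cells was divided between low-input m6A immunoprecipitation (SLIM-seq) and input libraries. The authors trimmed reads with fastp 0.20.1, aligned them to GRCm38 with HISAT2 2.2.1 and counted them per gene with featureCounts 2.0.1. The strand setting and the annotation version are not given in the sources used here. The deposited table holds raw read counts of 46959 entries in 44 libraries. Entries under 2 repeated names (128, with up to 0.390% of the reads in any library) were left out, which kept 46831 genes. 2 further tables hold the authors' own fold changes and p-values and were not used.

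Counts were tested with edgeR 4.0.16 (R 4.3.3) by the quasi-likelihood test, with TMM scaling, the default filter on low counts and Benjamini-Hochberg adjustment over all genes of a fit. The script was tested on simulated data. Log2 ratios used a prior count of 2, and FPKM divides CPM by the exon length in GENCODE vM21. A transcript was tagged where IP exceeded input by more than 1 (log2) at an unadjusted p under 0.05, and an mRNA changed within a population beyond 0.5 (log2) at such a p, as in the study. Alternatives were DESeq2 1.42.0, its size factors in edgeR, no filter, a replicate block and leaving out each library. Values in single libraries were given for Ube2h and for members called in a comparison, by order of p, and where few were called, for the next in that order. Members and lists were chosen with earlier results of these data known.

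IP and input of the same number were made from the same sorted cells, and their deviations from the group means correlated at 0.0179 to 0.239 across genes in the WT and at 0.0403 to 0.0463 in Mettl3cko, so paired values are given where they change a call. Numbers of different genotypes or populations share only a number. The study calls its replicates biologically independent experiments, and p-values measure the spread between them. No replicates were duplicates of one another by their counts (chi-square divided by its degrees of freedom, 26.2 or more). Values of 1 member and of 2 other genes are not reported here, and counts over the members include it.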

Additional observations from a re-analysis of the deposited data

Results flagged for a closer look

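The ratio of IP to input of Ube2j2 differed between the stem and progenitor populations and the downstream ones in the test of that difference, by 0.99 on the log2 scale (adjusted p = 0.00254, edgeR quasi-likelihood test). All 6 stem and progenitor pairs lay above all 10 downstream pairs. The ratio of its paralogue Ube2j1 differed in the same direction by 0.68 (adjusted p = 0.0223), with overlapping pairs. The mRNA of the pair moved in opposite directions between the same populations, with a log2 difference of −0.80 for Ube2j2 and 0.43 for Ube2j1. The ratio divides by the same input libraries that give the mRNA, so at a given IP level a lower input gives a higher ratio. For Ube2j2 the differences in ratio and in mRNA share these inputs and are not independent of each other. The IP libraries of these populations also differed in their share of mitochondrial reads, as given above. Whether the m6A of the transcript differs apart from its mRNA or from this share was not tested.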

How the results depend on the processing

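Of 544 values of single members under another tool, scaling, filter or block, 512 kept their direction and side of the threshold, 17 lost the call, 15 gained it and 0 turned. Of 58 counts of members, 48 stayed within 1.5 times. The other 10 were as follows, and the cause was not tested. For the ratio of IP to input across the 8 populations, DESeq2 called 1 (3.94% of all genes) and the replicate block 2 (3.64%), in place of 0 (0.485%). For stem and progenitor against downstream cells, DESeq2 size factors gave 1 (4.16%), no filter 1 (3.63%) and the replicate block, which pairs IP with input, 4 (6.94%), in place of 2 (4.84%). For Mettl3cko against WT mRNA over 3 populations DESeq2 called 8 (12.4%), in place of 3 (6.47%). For the change of the ratio over 3 populations DESeq2 called 4 (8.95%) and no filter 1 (3.40%), in place of 0 (2.33%), and in pre-BCSP DESeq2 size factors (11.9%) and no filter (10.7%) each gave 1, in place of 2 (11.9%). Other blocked fits changed no count by as much.

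With each library left out in turn, the counts of members ran from 16 to 23 for mRNA across the WT populations, 19 to 23 for stem and progenitor against downstream mRNA, 34 to 40 for tagged pairs, 0 to 1 for the ratio across populations and 1 to 3 for its stem and progenitor contrast. For Mettl3cko mRNA they ran from 3 to 4 over 3 populations, 2 to 5 in SSC, 0 to 10 in pre-BCSP and 2 to 4 in BCSP, and for genotype by population 0. For the change of the ratio they ran from 0 to 2 over 3 populations, 4 to 15 in SSC, 0 to 10 in pre-BCSP and 1 to 10 in BCSP. Of 1448 single values 5 turned, all of Ube2h: its stem and progenitor difference in mRNA (−0.19 to 0.14), the change of its ratio in SSC (−0.44 to 0.058) and in BCSP (−0.31 to 0.16, with 0.09 without WT input replicate 1), and its ratio in 6C3 (−0.997 to 0.71). The lone sample left in fits of 2 against 2 is assumed to vary like the other group. Such fits limit the single populations, where no adjusted p passed for mRNA in the main edgeR fits. With the replicate block, 1 member passed in SSC, and the share over all genes was not computed.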
